A study of Mus musculus with 2 samples.

Results

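The genes described here encode the proteasome, the immunoproteasome and their activators and assembly factors. They were taken as every symbol of the deposited matrix that starts with Psma, Psmb, Psmc, Psmd, Psme or Psmf followed by a number, which gave 46 of 16819 symbols. CD45+ DAPI- cells had been sorted from cervical, thoracic and lumbar dorsal root ganglia (DRG) of naive WT BALB/cAnNRj mice, and were run in a single lane of the 10x 3′ v3 assay. The 3 male and 3 female mice carried hashtag antibodies. The deposited matrix of raw UMI counts (molecules counted by their unique barcode) held cells with a male hashtag, and each male hashtag was taken as 1 mouse, with 481, 772 and 1415 cells. No mouse was treated, so that the comparisons were between cell types of the same animals.

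The proteasome degrades proteins tagged with ubiquitin. Its barrel-shaped core is built of alpha rings, which gate the entry, and of beta rings, in which Psmb5, Psmb6 and Psmb7 carry the chymotrypsin-like, the caspase-like and the trypsin-like site. In immune cells and under interferon these subunits can be exchanged for Psmb8, Psmb9 and Psmb10, which changes the peptides that are cut for presentation on MHC class I. A cap of ATPases (Psmc) and of non-ATPase subunits (Psmd) recognizes and unfolds the substrates, whereas Psme1 and Psme2 form another cap that does not need ubiquitin. Psme1, Psme2 and the immunoproteasome subunits are known as interferon-γ targets.

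Both Psmb8 (17:34197721-34201454, plus strand) and Psmb9 (17:34181987-34187764, minus strand) lie in the MHC region in GENCODE M21 (GRCm38), beside the peptide transporter gene Tap1. Psmb10 lies apart from them (8:105935735-105938444, minus strand). Psme1 (14:55578123-55581529, plus strand), Psme2 (14:55587441-55591113, minus strand) and Psmb5 (14:54614119-54618022, minus strand) share a chromosome. The promoter windows of the 2 immunoproteasome neighbours, of the activator Psme1 and of a constitutive subunit are shown because the results that follow turn on these genes. Each window runs from 250 bases before to 50 bases after the RefSeq start (GRCm38.p6, 5′ to 3′ on the strand of the gene), and capitals mark a match to 1 of 2 motifs searched on both strands. These were GAAA, any 2 bases and GAAA again (the interferon-stimulated response element) and TGACNNNGC (the antioxidant response element).
Psmb8, chr17:34197945-34198244, plus strand: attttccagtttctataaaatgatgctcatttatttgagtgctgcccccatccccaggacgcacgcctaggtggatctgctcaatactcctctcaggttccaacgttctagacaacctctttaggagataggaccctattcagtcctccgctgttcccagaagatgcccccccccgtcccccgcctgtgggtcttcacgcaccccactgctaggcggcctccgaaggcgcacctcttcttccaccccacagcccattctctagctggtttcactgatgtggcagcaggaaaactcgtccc
Psmb9, chr17:34187281-34187580, minus strand: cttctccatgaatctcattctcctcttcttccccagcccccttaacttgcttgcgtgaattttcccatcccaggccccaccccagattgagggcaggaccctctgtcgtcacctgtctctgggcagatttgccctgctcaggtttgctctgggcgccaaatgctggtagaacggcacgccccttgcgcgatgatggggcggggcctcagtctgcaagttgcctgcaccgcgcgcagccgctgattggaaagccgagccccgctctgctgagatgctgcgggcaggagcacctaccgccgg
Psme1, chr14:55578244-55578543, plus strand: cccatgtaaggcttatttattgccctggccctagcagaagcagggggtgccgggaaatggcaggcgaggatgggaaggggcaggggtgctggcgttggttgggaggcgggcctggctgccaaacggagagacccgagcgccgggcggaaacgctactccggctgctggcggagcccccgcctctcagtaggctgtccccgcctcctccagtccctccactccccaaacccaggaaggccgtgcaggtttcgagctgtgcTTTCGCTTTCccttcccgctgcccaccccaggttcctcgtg
Psmb5, chr14:54617946-54618245, minus strand: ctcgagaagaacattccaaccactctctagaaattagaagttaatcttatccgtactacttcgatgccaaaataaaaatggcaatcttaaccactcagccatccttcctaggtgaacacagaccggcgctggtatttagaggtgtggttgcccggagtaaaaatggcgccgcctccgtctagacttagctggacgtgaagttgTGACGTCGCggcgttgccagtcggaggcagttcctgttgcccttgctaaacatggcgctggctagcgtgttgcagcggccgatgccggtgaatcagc
The antioxidant motif stood 47 bases before the start of Psmb5, and the interferon motif, read on the reverse strand, 9 bases after that of Psme1. Neither motif stood in the windows of Psmb8 and Psmb9. The windows of Psmb8, Psmb9 and Psme1 lie within the gene spans given above. They do not reach the bases before the GENCODE starts of these genes, so a missing motif says nothing about those bases. Of the window of Psmb9, 275 of 300 bases are shared with the window of Tap1 on the opposite strand. Windows were found for 39 of the 46 genes. The interferon motif occurred in 4 of them (Psmb3, Psmd4, Psmd9 and Psme1), against 3.99% of all 27025 genes with a window, and the antioxidant motif in 6 (Psmb5, Psmb6, Psmc6, Psmd12, Psmd9 and Psme4; 14.0% of all genes). A match of letters is a description and does not show binding.

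Proteasome genes held 107117 UMIs, or 0.458% of all UMIs of the matrix. The alpha ring subunit Psma7 had the most (7699 UMIs, detected in 79.4% of cells), followed by Psme1 (7231) and Psmb8 (6520). Psmb9 (3050) and Psmb10 (2300) were lower than Psmb8, and the constitutive subunits had 2964 (Psmb5), 3060 (Psmb6) and 1534 (Psmb7). The assay counts molecules at their 3′ end, so the total of a gene does not grow with its length. At the low end stood Psmb11, the thymus subunit, with 1 UMI, and Psma8, the testis subunit, with 48. Psmc3ip (153 UMIs) matched by its name but is a recombination factor and not a proteasome subunit.

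Cells were labelled without these genes. The UMIs of each cell were divided at random, the clusters came from the one part with the 46 genes left out, and the values below come from the held-out part, summed per mouse and cell type. Clusters were called by the cell type whose markers they carried, and the names below stand for cells that are like that type. They were macrophages (1366 cells, with CD163+ and CD163- clusters of 686 and 600), macrophages with interferon-regulated genes (68), monocytes (106), dendritic cells (DCs, 104), neutrophils (565), B cells (134) and T and NK cells (137). Of the listed markers, 12 of 12 were raised in the interferon cluster, 8 of 9 in DCs, 8 of 10 in monocytes, 7 of 7 in B cells, 7 of 9 and 3 of 9 in the 2 clusters of T and NK cells, and 6 to 9 of 10 in the 3 clusters of neutrophils. The C1q genes of macrophages made up 1.68% of UMIs in macrophages and 1.84% in the interferon cluster, but 0.012% to 0.049% in the other named types. A cluster of proliferating cells (106) and a cluster of 82 cells were left unnamed and stayed out of the tests. The latter had Col1a2 and Sparc among its leading genes. Only 1 fibroblast and 1 glia marker were raised in it, and its C1q level was 19.0% of that in the highest cluster. The median number of UMIs per cell ran from 3203.5 in B cells to 13467.5 in DCs. Unless stated otherwise, levels are TMM-scaled CPM (the UMIs of a gene relative to the scaled total of its sum of cells), and differences were tested with the quasi-likelihood test of edgeR with Benjamini-Hochberg adjustment over all genes tested. The labels do not say whether the hashtags mark separate litters or days, and p-values cover the spread among these 3 mice.

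In the fit of all named cell types, 37 of the 46 genes passed the filter on low counts. The test over all types took in macrophages, monocytes, DCs, neutrophils, B cells and T and NK cells, without the interferon macrophages. In it 22 of the 37 genes differed between these 6 types at an adjusted p under 0.05, against 83.2% of all 4642 genes tested. Psmf1 was among the 22, with the limit given below for B cells. Among the proteasome genes the smallest adjusted p-values belonged to Psmb9 (7.68e-11), Psme1 (1.70e-09), Psmb8 (3.94e-09), Psmb10 (9.36e-08) and Psma7 (3.22e-07). Of the constitutive catalytic subunits, Psmb6 passed (adjusted p = 0.00292), whereas Psmb5 (0.0543) and Psmb7 (0.493) did not. The 9 genes that did not pass the filter were Psma8, Psmb11, Psmc3ip, Psmd5, Psmd9, Psmd10, Psme2b, Psme3 and Psme4, with 1 to 622 UMIs each. The nuclear activators Psme3 and Psme4 were thus read as levels only, with means of 15.03 to 34.7 and of 11.7 to 46.4 CPM over the cell types. The scaling matters for what follows. The TMM factors were 0.526 to 0.637 in neutrophils and 1.30 to 1.38 in B cells, and ribosomal protein genes took 3.55% of UMIs in neutrophils but 14.0% in macrophages and 20.5% in B cells. With total UMIs and no factors, the median of all genes against macrophages moved from -0.09 to -0.76 (log2) in neutrophils, from -0.05 to 0.26 in monocytes, from -0.06 to 0.02 in DCs, from -0.06 to 0.46 in B cells and from 0.04 to 0.46 in T and NK cells. The share of higher calls among all genes then moved from 47.1% to 24.6% in neutrophils, from 46.4% to 69.6% in monocytes, from 46.8% to 53.7% in DCs, from 43.7% to 68.0% in B cells and from 47.0% to 67.7% in T and NK cells.

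The cells with interferon-regulated genes were compared with the other macrophages to ask which proteasome genes go with that state. All 3 immunoproteasome subunits and both subunits of the interferon-γ activator were higher there, and none of the 3 constitutive subunits was called. Psmb9 was at 100.9, 121.5 and 107.5 in the macrophages of mice 1, 2 and 3, and at 343.6 and 397.3 in the interferon cells of mice 2 and 3. Every interferon value lay above every macrophage value, and the difference was 1.79 ± 0.21 (log2, SE; 3.46-fold; adjusted p = 3.40e-08 by edgeR). Psmb8 was at 311.8, 320.7 and 302.4 against 466.3 and 794.5, without overlap (2.23-fold; log2 1.16 ± 0.19, adjusted p = 2.90e-05). Psmb10 was at 103.9, 121.5 and 123.0 against 171.8 and 449.9 (3.23-fold; log2 1.69 ± 0.23, adjusted p = 7.27e-07), so that the 2 interferon values were far apart but both above the macrophages. The interferon cells of mouse 1 numbered 3 and were left out, and mouse 2 had only 10.

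Psme1 and Psme2 moved with them. Psme1 was at 363.0, 373.9 and 369.4 in macrophages and at 564.5 and 847.2 in interferon cells (2.06-fold; adjusted p = 0.000129 by edgeR). Psme2 was at 146.1, 151.6 and 168.3 against 319.1 and 421.2 (2.52-fold; adjusted p = 3.86e-05). Both sets of values were apart in both mice. In the constitutive subunits the groups overlapped, with log2 differences of -0.18 for Psmb5 (adjusted p = 0.909), 0.34 for Psmb6 (0.645) and 0.13 for Psmb7 (0.951). The sixth called gene was the alpha ring subunit Psma5 (log2 1.05 ± 0.28, adjusted p = 0.0154), but here the 2 mice went apart, with 24.5 and 311.1 against 100.9 to 130.5, and 1 and 65 UMIs behind the 2 values. Thus 6 of 37 genes tested were higher and 0 lower, against 4.27% of all genes called in either direction (3.75% higher and 0.517% lower), and the median over the proteasome genes tested was 0.04 against -0.13 for all genes. Of the 17 cap subunits, 0 were called by edgeR. With total UMIs the same 6 genes were higher and 0 lower, against 4.16% of all genes called (3.58% higher and 0.582% lower). Without mouse 3, which held 55 of the 68 cells, 0 of the 6 were called and the differences ran from 0.66 (Psmb8) to 1.70 (Psmb9) in the immunoproteasome and activator subunits, all above 0 but none past the threshold with 10 interferon cells left.

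**Figure D1:**
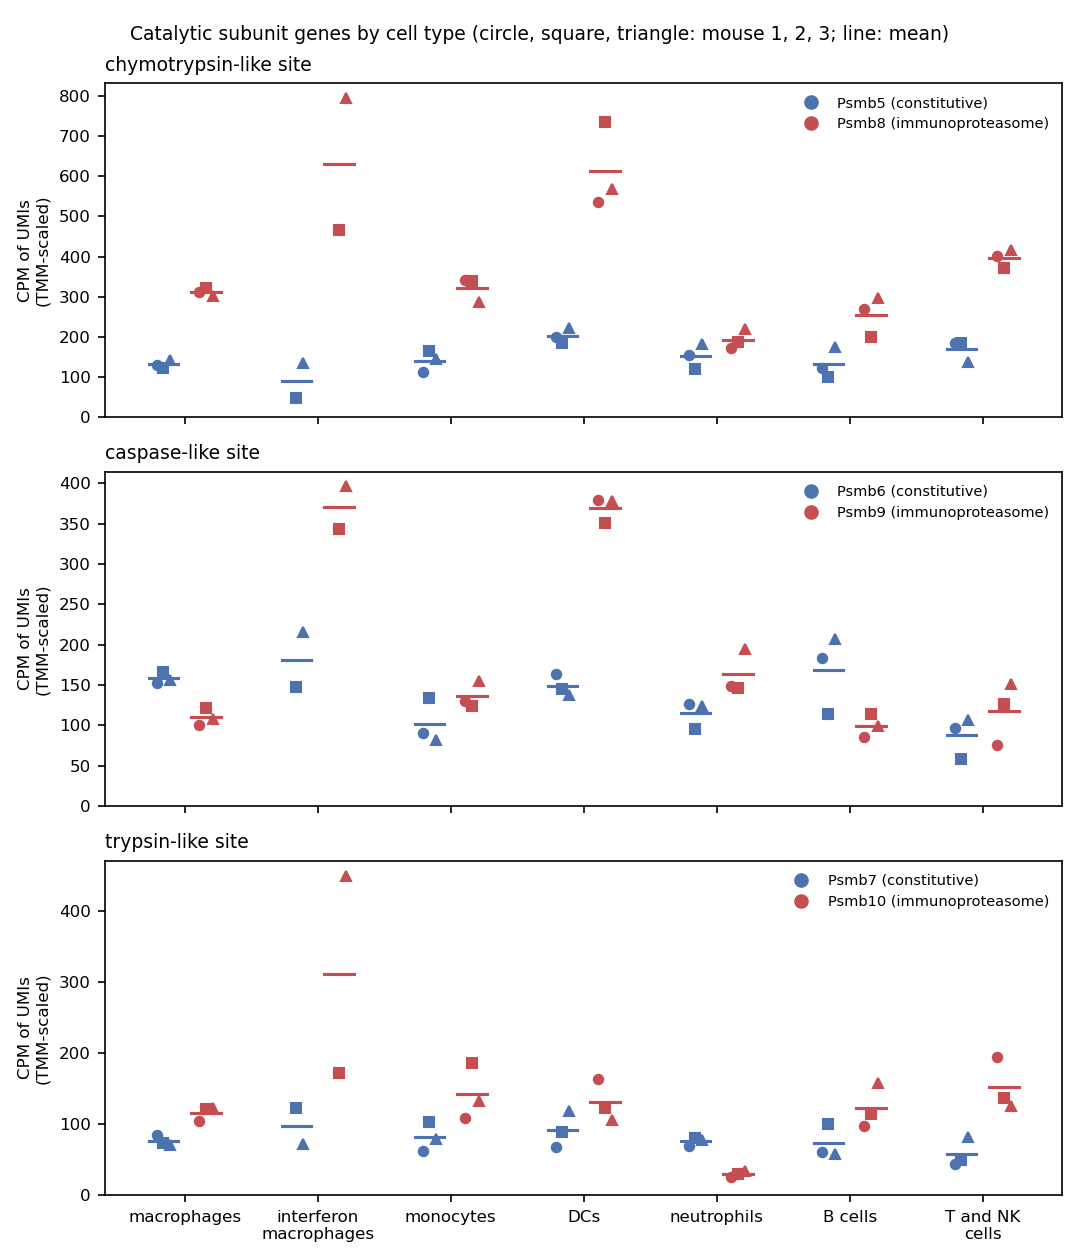
Levels of the constitutive catalytic subunits and of the immunoproteasome subunits that replace them (TMM-scaled CPM, linear axis) by cell type. Each point is 1 mouse and each line the mean. Psmb8 and Psmb9 stand highest in the interferon macrophages and in DCs, and Psmb10 lies lowest in neutrophils (25.8 to 33.1).

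In DCs, the cells that present antigen to T cells, Psmb8, Psmb9 and both activator subunits were higher than in macrophages, and Psmb10 was not called. Psmb9 was at 379.8, 351.2 and 377.5 in DCs, all above the highest macrophage value of 121.5 (3.33-fold; log2 1.74 ± 0.16, adjusted p = 2.32e-11 by edgeR). Psmb8 was at 536.2, 735.9 and 567.7, again above all macrophage values (1.97-fold; log2 0.98 ± 0.16, adjusted p = 3.58e-06). Psmb10, in contrast, was at 163.9, 122.7 and 106.1 and overlapped with macrophages (log2 0.08, adjusted p = 0.824). Of the activators, Psme1 was at 551.1, 708.1 and 661.3 (log2 0.80 ± 0.16, adjusted p = 6.73e-05) and Psme2 at 230.9, 250.9 and 268.3 (log2 0.69 ± 0.19, adjusted p = 0.00325), without overlap in either. The calls of these 4 genes were kept in all 16 alternatives. Among the other core genes, the constitutive subunit Psmb5 was also higher in DCs, with 201.1, 184.0 and 221.5 against 129.5, 123.4 and 143.1 (log2 0.62 ± 0.19, adjusted p = 0.00860), as were the alpha ring subunits Psma4 (log2 0.79 ± 0.19, adjusted p = 0.00100) and Psma3 (log2 0.44 ± 0.17, adjusted p = 0.0476). Psmb5 lost its call under another random split of the UMIs and without the filter. DCs thus had 7 of 37 genes higher and 0 lower, against 31.1% of all genes called (14.5% higher and 16.5% lower), with medians of 0.18 and -0.06. None of the cap subunits was among them. With total UMIs and no factors all 7 were still higher, and 9 genes were higher and 0 lower in all, against 31.6% of all genes called (17.0% higher and 14.6% lower).

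**Figure D2:**
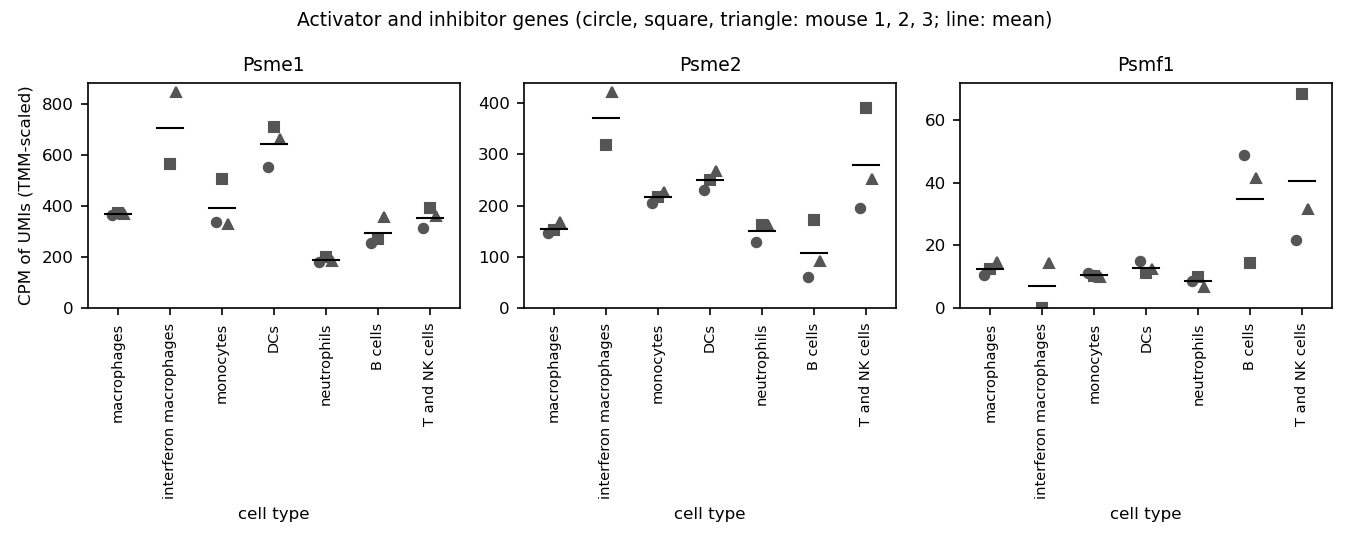
Levels of the activator subunits Psme1 and Psme2 and of the inhibitor Psmf1 (TMM-scaled CPM, linear axes of different range) by cell type. Points are mice and lines means. Psme1 and Psme2 are highest in the interferon macrophages, and Psmf1 spreads widely in B cells and in T and NK cells, where single values rest on 1 to 7 UMIs.

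In neutrophils, the short-lived granulocytes, Psmb10, Psmb8 and Psme1 were lower than in macrophages, whereas Psmb9 was higher. The balance of higher and lower genes turned with the clustering and the scaling, as given below. Psmb10 was at 25.8, 30.3 and 33.1 in neutrophils (39 UMIs in all), below 103.9, 121.5 and 123.0 in macrophages, and fell by 1.94 ± 0.25 on the log2 scale (adjusted p = 1.31e-08 by edgeR). Psme1 was at 180.5, 201.9 and 185.1, again below every macrophage value (log2 -0.98 ± 0.17, adjusted p = 2.73e-06). Psmb8 was at 171.9, 186.8 and 219.6 and lower than in macrophages (log2 -0.66 ± 0.17, adjusted p = 0.000591), and Psmb6 was at 126.1, 95.9 and 124.3 against 152.1, 166.0 and 156.7 (log2 -0.42 ± 0.17, adjusted p = 0.0322). Against this direction, Psmb9 was at 149.0, 146.4 and 194.7, all above macrophages (log2 0.61 ± 0.17, adjusted p = 0.00139). Psmb5 (0.27, adjusted p = 0.159), Psmb7 (0.02, 0.936) and Psme2 (-0.05, 0.835) were not called.

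Of the 17 cap subunits tested, 6 were lower and 1 higher in neutrophils, and 10 were not called. Psmd1, the large scaffold of the cap, was at 14.3, 15.2 and 26.2 against 52.7, 59.5 and 61.5 (log2 -1.48 ± 0.29, adjusted p = 2.23e-05 by edgeR), and the lid subunit Psmd3 at 20.1, 15.2 and 22.1 against 28.6, 48.9 and 43.7 (log2 -1.05 ± 0.31, adjusted p = 0.00333). Neither overlapped with macrophages. In the alpha ring, Psma4 and Psma5 were lower (log2 -0.82 for both, adjusted p = 0.000544 and 0.00183). The 5 higher genes were the lid subunit Psmd13, with 126.1, 95.9 and 168.5 against 60.3, 67.6 and 70.9 (log2 1.04 ± 0.18, adjusted p = 4.30e-06), the beta ring subunit Psmb3 (log2 0.76 ± 0.14, adjusted p = 1.57e-05), Psmb9, and the alpha ring subunits Psma2 (0.58, adjusted p = 0.00224) and Psma6 (0.46, adjusted p = 0.0281). In all, 5 of 37 genes were higher and 13 lower, against 66.6% of all genes called (31.4% higher and 35.2% lower), with medians of -0.21 and -0.09. The 13 lower genes were also lower with total UMIs and no factors, whereas the 5 higher ones were no longer called, and Psmb9, Psma2 and Psma6 turned to -0.08, -0.09 and -0.22. That scale called 30 of 37 genes lower and 0 higher, against 73.5% of all genes called (55.4% lower and 18.1% higher). A coarser clustering counted proliferating cells among the neutrophils (671 in place of 565). There Psmb10 and Psme1 were still lower, but Psmb8, Psmb6 and Psma5 were not (log2 0.01, 0.14 and 0.13). In that setting 14 of 37 genes were higher and 2 lower, against 2090 higher and 996 lower of all 5077 genes. The medians were then 0.33 for both, up from -0.21 in the proteasome genes and -0.09 in all genes. The cause of these shifts was not tested. The balance was 6 higher and 4 lower under another random split of the UMIs (1433 and 1405 among all genes). It was 6 and 5 without mouse 3 (1426 and 1070 among all genes). With sums of under 5 cells kept it was 9 and 6 (1497 and 1146 among all genes). 

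**Figure D3:**
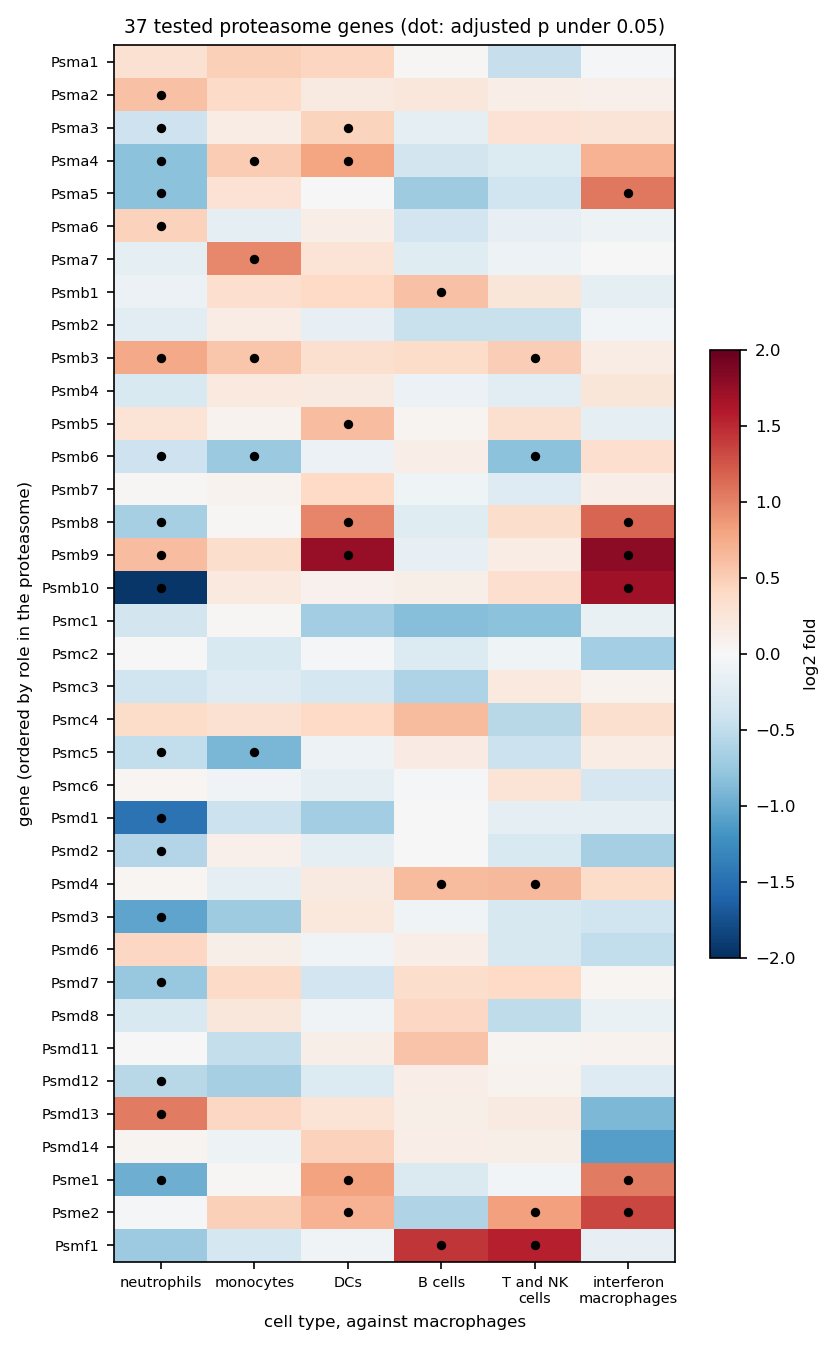
Log2 difference from macrophages (edgeR, TMM scale; colour from blue for lower to red for higher, cut at -2 and 2) of the 37 proteasome genes tested, in order of their role (vertical axis), by cell type (horizontal axis). A dot marks an adjusted p under 0.05 over all genes. Psmb8, Psmb9, Psme1 and Psme2 are red with a dot in both DCs and interferon macrophages, and Psmb10 is deepest blue in neutrophils (-1.94).

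Monocytes differed from macrophages above all in Psma7, an alpha ring subunit. It was at 372.0, 337.0 and 363.6 in macrophages and at 738.9, 648.8 and 688.8 in monocytes, far apart in all 3 mice (log2 0.96 ± 0.16, adjusted p = 3.73e-06 by edgeR). Psmb3 was at 255.8, 257.4 and 237.3 against 164.2, 167.9 and 174.5 (log2 0.55, adjusted p = 0.00936), and Psma4 was called with overlapping groups (log2 0.51, adjusted p = 0.0475). Lower were the caspase-like subunit Psmb6, with 90.9, 133.9 and 82.4 against 152.1, 166.0 and 156.7 (log2 -0.74 ± 0.22, adjusted p = 0.00717), and the cap ATPase Psmc5, with 56.8, 20.6 and 49.4 against 100.9, 84.6 and 84.8 (log2 -0.92 ± 0.30, adjusted p = 0.0133). None of the immunoproteasome subunits was called, with log2 differences of 0.03 for Psmb8, 0.35 for Psmb9 and 0.19 for Psmb10 (adjusted p = 0.939, 0.199 and 0.568). The counts were 3 of 37 higher and 2 lower, against 33.9% of all genes called (15.7% higher and 18.2% lower), with medians of 0.11 and -0.05. With total UMIs, Psma7, Psmb3 and Psma4 were still higher, but Psmb6 (-0.41) and Psmc5 (-0.60) lost their call, and 15 proteasome genes were higher and 0 lower, against 38.1% of all genes called (26.5% higher and 11.6% lower). Of the monocyte calls only Psma7 was kept without each mouse in turn.

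B cells had the fewest calls of the 6 cell types. Psmb1, a beta ring subunit without catalytic activity, was at 428.1, 285.3 and 306.4 against 235.0, 214.8 and 226.3 in macrophages (log2 0.59 ± 0.19, adjusted p = 0.0131 by edgeR), and the ubiquitin receptor Psmd4 at 220.2, 199.7 and 157.3 against 126.5, 114.6 and 124.6 (log2 0.63 ± 0.25, adjusted p = 0.0395). Neither overlapped. Psmf1, which binds the core and can inhibit it, was called on 4, 1 and 5 UMIs, with 48.9, 14.3 and 41.4 against 10.5, 12.5 and 14.9 (log2 1.44 ± 0.56, adjusted p = 0.0368), and its ranges overlapped. It passed the filter with 292 UMIs in the matrix, while Psmd10 with 622 did not. The sums of B cells and of T and NK cells may have carried Psmf1 past the filter, so its calls there are a description. With Psmf1 counted, 3 of 37 genes were higher and 0 lower, against 41.3% of all genes called (18.1% higher and 23.2% lower), with medians of 0.00 and -0.06. Psmb8 (log2 -0.25, adjusted p = 0.364) and Psme2 (-0.60, 0.0957) were not called. With total UMIs the 3 were still higher among 10 higher and 0 lower genes, against 50% of all genes called (34.0% higher and 16.0% lower). Without mouse 1 none of the 3 calls was kept, and without mouse 2 none of them was either, while 1 gene was lower. Without the filter 0 of 45 genes were higher and 3 lower, against 762 higher and 1658 lower of all 15668 genes.

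In T and NK cells the interferon-γ activator subunit Psme2 was higher without Psme1. Psme2 was at 194.8, 390.8 and 251.8 against 146.1, 151.6 and 168.3, apart in all mice but with a wide spread (log2 0.83 ± 0.21, adjusted p = 0.00123 by edgeR), whereas Psme1 was at 313.9, 390.8 and 358.8 and overlapped with macrophages. Whether the 2 subunits differed from each other was not tested. Psmb6 was at 97.4, 58.6 and 107.0, below every macrophage value (log2 -0.81 ± 0.26, adjusted p = 0.00879). Psmd4 (log2 0.64 ± 0.23, adjusted p = 0.0203), Psmb3 (0.49 ± 0.19, 0.0337) and Psmf1 (1.56 ± 0.49, 0.00943, on 2, 7 and 5 UMIs) were higher. As in B cells, the call of Psmf1 is a description, because these sums may have carried it past the filter. With Psmf1 counted, 4 of 37 were higher and 1 lower, against 42.9% of all genes called (20.2% higher and 22.7% lower), with medians of -0.05 and 0.04. Without the filter 0 of 45 genes were higher and 3 lower, against 1006 higher and 1668 lower of all 15668 genes. With labels and sums from all UMIs 3 of 43 were higher and 7 lower, against 1358 and 1700 of all 6805 genes. Without mouse 2 none of the 5 was called, and with total UMIs Psmb6 (-0.39) was not, while 13 genes were higher and 0 lower, against 50.5% of all genes called (34.2% higher and 16.3% lower). All comparisons with macrophages share the macrophage sums, so that they are not independent of each other. The paper saw signs of genes induced by the tissue digestion, above all in its macrophages. Their part in these comparisons was not tested.

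The CD163+ and CD163- macrophages, the main subsets of the study, differed in 1 of these genes. Psma7 was at 285.5, 245.3 and 263.0 in CD163+ and at 376.7, 348.6 and 341.5 in CD163- macrophages, without overlap (log2 -0.43 ± 0.12, adjusted p = 0.0208 by edgeR). It was the only 1 of 42 genes tested that passed, against 8.45% of all 6559 genes (3.57% higher and 4.88% lower), and the medians were -0.18 and 0.00. With the mouse as a block Psmb8 was called as well (log2 -0.31, adjusted p = 0.0298 by edgeR), and without the block it was not (0.123). Among all 6559 genes the block raised the calls from 234 higher and 320 lower to 375 and 461. The call for Psma7 was lost without any 1 of the mice, with DESeq2 and with total UMIs, where 0 genes were called against 9.51% of all genes (6.10% higher and 3.42% lower).

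The share of immunoproteasome subunits among the catalytic UMIs (Psmb8, Psmb9 and Psmb10 over these plus Psmb5, Psmb6 and Psmb7) does not depend on the scaling between cell types. It was 58.5%, 60.9% and 59.0% in macrophages (59.5% ± 1.25, SD, n = 3), and 75.5% and 79.6% in interferon macrophages. DCs had 71.4%, 74.3% and 68.8%, T and NK cells 67.4%, 68.4% and 67.9%, and monocytes 68.5%, 61.8% and 65.2%. All of these values lay above those of macrophages. The T and NK cells joined 2 clusters (81 and 56 cells, with 7 of 9 and 3 of 9 markers raised), whose shares were not taken apart. The DC cluster had Xcr1, Clec9a and Cd209a among its leading genes. Neutrophils (49.8%, 55.0% and 53.7%) and B cells (55.2%, 57.7% and 55.8%) lay below every macrophage value. For B cells this turned with all UMIs and the same labels, where the mean was 59.8% against 59.1% in macrophages, and under another random split it was 58.4% against 58.6%. For monocytes these settings gave 61.6% and 59.9%. The other split counted 166 cells as monocytes in place of 106, among them a cluster of 60 with Cd209a among its leading genes. In each of the 6 comparisons with macrophages the two-sided exact permutation p was 0.1, the smallest that these numbers of mice allow, and it was 0.1 after adjustment over the 6. Counting error alone gives a pooled interval of 58.1% to 60.9% in macrophages (95%, Clopper-Pearson, 2889 of 4853 UMIs). The interval of B cells was 49.5% to 62.5% and covered that of macrophages, whereas that of monocytes was 61.2% to 69.5%.

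The 3 pairs did not follow 1 pattern. For Psmb8 over Psmb8 plus Psmb5 the mean share was 70.2% in macrophages, 88.0% in interferon macrophages, 74.9% in DCs and 55.9% in neutrophils. For Psmb9 with Psmb6 it was 40.9% in macrophages, 67.4% in interferon macrophages, 71.3% in DCs and 58.5% in neutrophils. For Psmb10 with Psmb7 it was 60.5%, 72.3%, 58.7% and 28.2% in the same order. In this last pair the interferon macrophages of mice 2 and 3 were at 58.3% and 86.2%. The value of mouse 2 lay within the macrophage range of 55.2% to 63.7%, and DCs ranged from 47.2% to 71.0%. Neutrophils thus stood below macrophages in 2 of the pairs and above them in the pair of Psmb9.

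**Figure D4:**
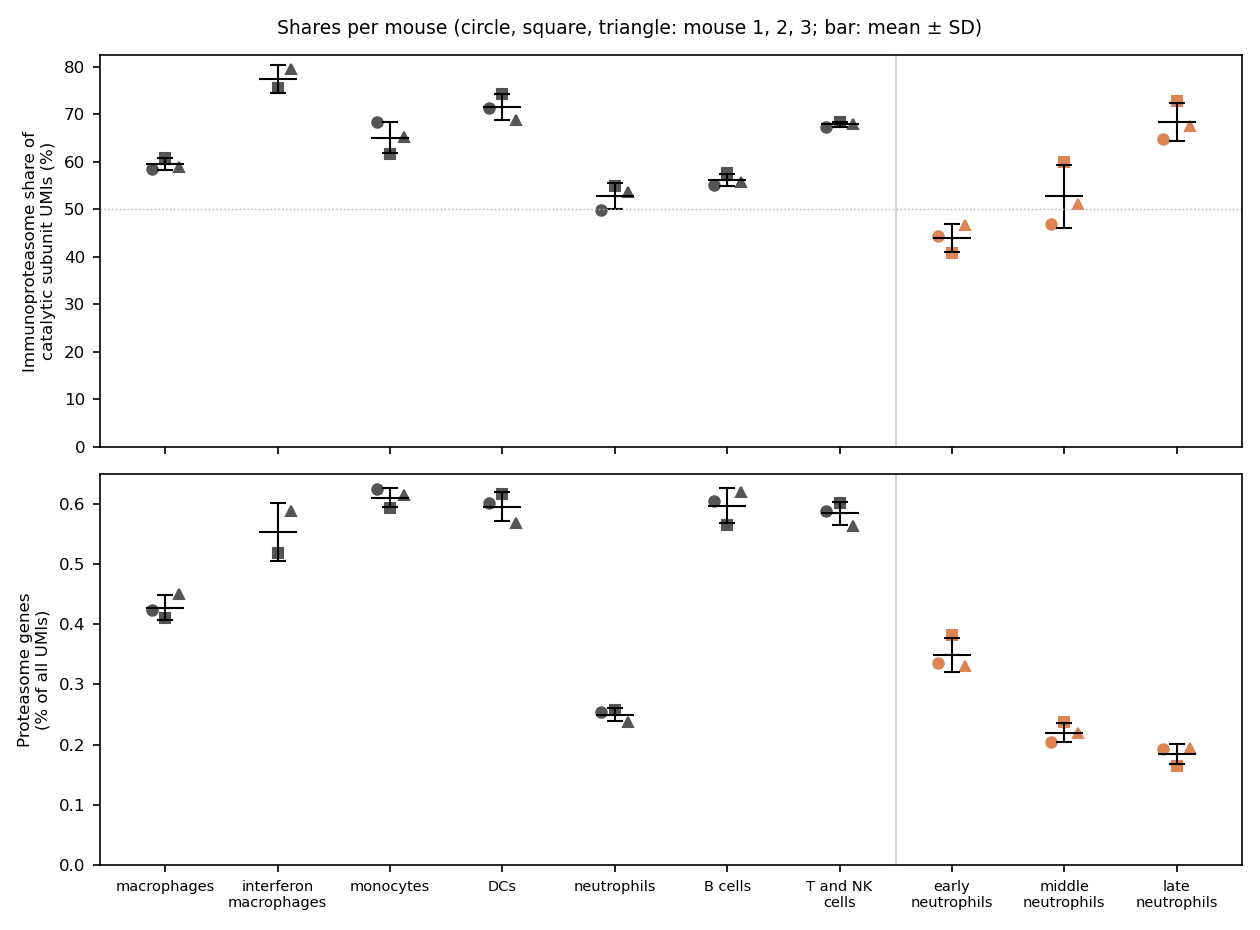
Immunoproteasome share of the catalytic UMIs (upper panel) and proteasome share of all UMIs (lower panel), both in percent, by cell type and, right of the grey line, by cluster of neutrophils. Each point is 1 mouse and bars are mean ± SD, and the dotted line marks an equal share. With the labels used here, the first is highest in interferon macrophages (75.5% and 79.6%), and the second is lower in neutrophils (0.238% to 0.257%) than in the other cell types.

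The 41 genes that make up the core, the cap and the activators took 0.424%, 0.410% and 0.450% of UMIs in macrophages. Neutrophils had 0.255%, 0.257% and 0.238%, below every macrophage value, but 0.379% on average at the coarser clustering that counted proliferating cells among them. Interferon macrophages (0.519% and 0.588%), monocytes (0.593% to 0.625%), DCs (0.569% to 0.616%), B cells (0.565% to 0.621%) and T and NK cells (0.564% to 0.601%) lay above. The two-sided exact permutation p was 0.1 for each of the 6 comparisons, the smallest possible. As a share of all UMIs, this measure moves with other abundant genes, and the ribosomal share given above moved in the same direction in neutrophils and in B cells. Its part in the result was not tested.

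Neutrophils fell into 3 clusters, called early (63 cells), middle (204) and late (298) by markers of their granule and maturation genes. The early cluster also had raised proliferation genes, and the median UMIs per cell were 20357, 10695 and 3400. Most proteasome genes tested were lower in late than in early cells, whereas Psmb8 and Psmb9 were not called. Levels here were scaled within neutrophils. Psmb5 was at 133.0, 150.6 and 159.6 in early, at 93.0, 52.6 and 108.5 in middle and at 37.8, 42.0 and 62.2 in late cells, so that early and late did not overlap (late against early, log2 -1.49 ± 0.32, adjusted p = 0.000125 by edgeR). Psmb6 went from 94.4, 81.1 and 108.7 to 37.8, 10.5 and 44.4 (log2 -1.41 ± 0.36, adjusted p = 0.000906). Psmb8, in contrast, was at 107.2, 162.2 and 152.8 in early and at 128.4, 63.0 and 145.2 in late cells, which overlapped (log2 -0.15, adjusted p = 0.645), and Psmb9 at 81.5, 69.5 and 108.7 against 120.9, 105.0 and 118.5 (log2 0.34, adjusted p = 0.293). Psmb10 did not pass the filter in neutrophils.

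Among the genes that passed the filter, the largest differences were in cap subunits, 2 of them with few UMIs in late cells. The cap ATPase Psmc3 was at 158.7, 173.8 and 115.4 in early and at 0, 10.5 and 38.5 in late cells, the latter on 0, 1 and 13 UMIs (log2 -2.52 ± 0.41, adjusted p = 2.16e-06 by edgeR). The deubiquitinase of the lid, Psmd14, was at 64.3, 127.4 and 57.7 against 7.6, 0 and 20.7, on 1, 0 and 7 UMIs in late cells (log2 -2.31 ± 0.52, adjusted p = 0.000184). Both were lower in all 3 mice. Psmd12 (log2 -1.75), Psmd13 (-1.67) and Psmc6 (-1.64) followed (adjusted p = 0.00164, 7.59e-05 and 0.000380). Of the activators, Psme2 was lower (log2 -1.12 ± 0.36, adjusted p = 0.00582) and Psme1 was not called (0.20, adjusted p = 0.563). In all 21 of 29 genes tested were lower and 0 higher, against 69.1% of all 2591 genes called (35.0% lower and 34.1% higher), with medians of -1.04 and 0.01, and with total UMIs 20 of the 21 were still lower, against 68.9% of all genes called (33.7% lower and 35.2% higher). A member that passed the filter through the early cells alone had to differ. Psmc3 and Psmd14, with 0 to 13 UMIs in late cells, may be such members, so their differences are a description. Without the filter 14 of 44 were lower and 0 higher, against 1315 lower and 1350 higher of all 11957 genes. Without mouse 3, which held 329 of the 565 neutrophils, only 18 were tested. Of these, 10 were lower and 0 higher, against 604 lower and 568 higher of all 1801 genes.

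**Figure D5:**
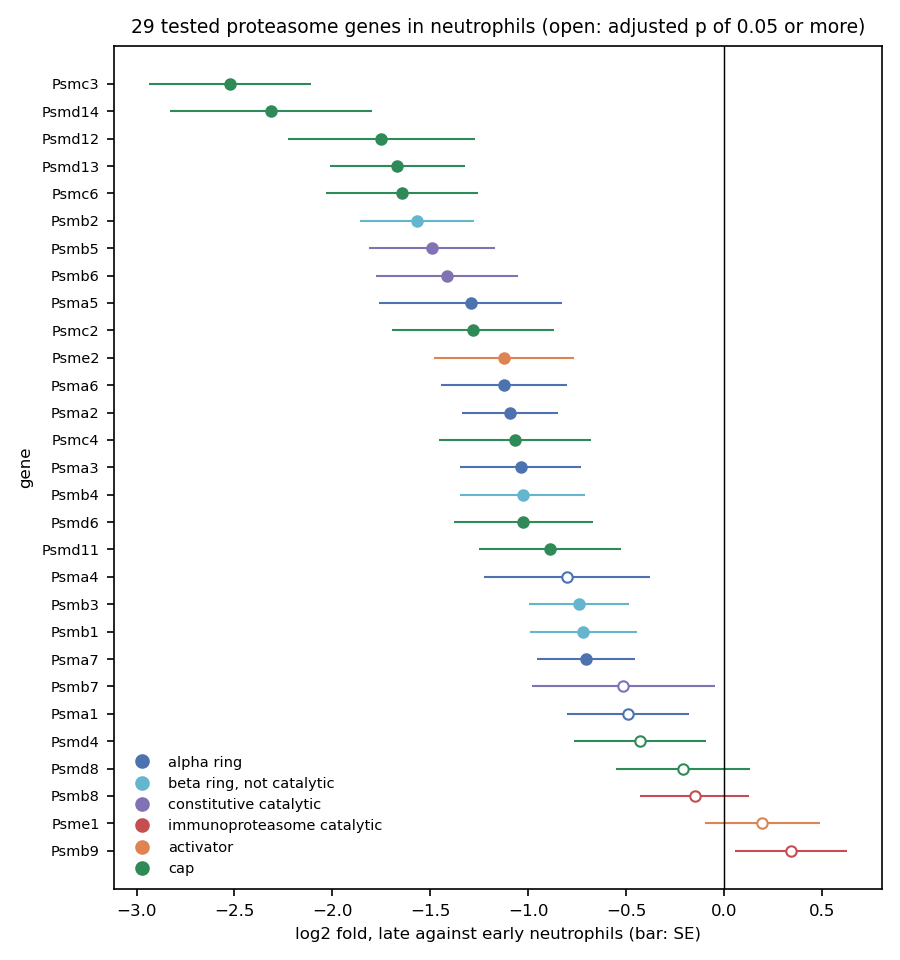
Log2 difference of late against early neutrophils (horizontal axis, edgeR) for the 29 proteasome genes tested (vertical axis, in order of the difference), with the SE as a bar and the role as colour. Filled points passed an adjusted p under 0.05. Psmc3 lies lowest (-2.52), and Psmb8, Psme1 and Psmb9 lie nearest 0 or above it with open points.

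With these the immunoproteasome share was 44.3%, 40.8% and 46.6% in early, 47.0%, 60.0% and 51.2% in middle and 64.8%, 72.7% and 67.6% in late neutrophils. Late cells were above early cells in each mouse, without overlap. In mouse 2 the immunoproteasome and constitutive UMIs were only 20 and 29 in early and 16 and 6 in late cells. In the pair of Psmb10 with Psmb7 the mice did not go 1 way. The shares were 33.3%, 0% and 27.3% in early and 18.2%, 0% and 41.2% in late cells (means 20.2% and 19.8%). Psmb10 had too few UMIs in neutrophils to pass the filter. The proteasome share of all UMIs ran the other way, from 0.336%, 0.382% and 0.331% in early to 0.192%, 0.165% and 0.194% in late cells. The depth per cell and the proliferation genes moved with the same clusters, and their part in these differences was not tested.

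The partners of the proteasome were read from lists of other genes. Of 11 genes for the loading of peptides on MHC class I, 10 were tested. In interferon macrophages 2 were higher and 0 lower, both subunits of the peptide transporter, Tap1 (log2 2.48) and Tap2 (1.42), and in DCs Tap1 (1.70) and Tap2 (0.93) were higher and B2m, the light chain of MHC class I, lower (-0.56). Of all genes, 4.27% were called in interferon macrophages and 31.1% in DCs. Neutrophils had 1 higher and 7 lower, against 31.4% and 35.2% of all genes, among them the chaperones Calr (-2.70) and Canx (-2.15). T and NK cells had 5 higher and 3 lower, against 20.2% and 22.7% of all genes. Monocytes and B cells had 0 higher with 3 and 4 lower, against 18.2% and 23.2% of all genes lower. Of 6 regulators tested, 2 were higher and 2 lower both in DCs and in neutrophils. Of all genes, 14.5% were higher and 16.5% lower in DCs, and 31.4% and 35.2% in neutrophils. Among these regulators, the transcription factor Irf8 was higher in DCs (1.28) and lower in neutrophils (-5.04). Of 9 partners of assembly and of the cap, 3 were higher and 4 lower in neutrophils, against 31.4% and 35.2% of all genes. In DCs 1 of these partners was higher and 1 lower, against 14.5% and 16.5%. Among them, the assembly chaperone Psmg4 was lower in neutrophils (-1.92) and Pomp, which matures the core, higher in DCs (0.50). Of 9 ubiquitin and delivery genes tested, 6 were lower in neutrophils and 1 higher, against 35.2% and 31.4% of all genes, and 0 were called by edgeR in interferon macrophages, where 4.27% of all genes were. These calls used the same edgeR fit and threshold.

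Cells with a female hashtag, which are not among the cells above, were labelled in the same way from the larger deposited matrix (1073 cells of 3 mice). No DC or interferon cluster came out of these, and the cluster that took the name of monocytes also had DC genes among its leading genes. A cluster of 38 cells with Csf2, Gata3 and Arg1 among its leading genes stayed unnamed. In the male mice a cluster with these genes counted among the T and NK cells, so that this group differs in its cells. Of the 46 genes 32 were tested, and 12 of these differed over all cell types, against 77.1% of all genes. In neutrophils 1 was higher and 9 were lower, against 59.8% of all genes called (26.4% higher and 33.4% lower). Psmb10 was at 118.2, 122.1 and 113.7 in macrophages and at 25.4, 14.7 and 45.5 in neutrophils (log2 -2.04), and Psmb8 (-1.20) and Psme1 (-0.89) were lower as well (edgeR). Psmb9 was not called (0.51, adjusted p = 0.0982), and Psmb3 was higher (0.71). In the monocyte cluster, Psma7 (log2 0.57), Psma4 (0.50) and Psmb9 (0.68) were higher, that is 3 genes higher and 0 lower, against 33.1% of all genes called (16.7% higher and 16.4% lower). B cells had 2 higher, among them Psmb1 (log2 0.96), and 2 lower, Psmb8 (-0.64) and Psme1 (-0.72), against 43.1% of all genes (17.8% higher and 25.3% lower). T and NK cells had Psmb8 higher (0.64) and Psmb2 lower (-1.02), against 39.0% of all genes (16.3% higher and 22.8% lower). Between CD163+ and CD163- macrophages 0 of 37 were called, against 4.63% of all genes (2.86% higher and 1.77% lower). The immunoproteasome share was 60.3% ± 2.11 in macrophages, 67.8% ± 0.980 in the monocyte cluster, 53.8% ± 1.48 in neutrophils, 56.3% ± 2.08 in B cells and 75.1% ± 5.00 in T and NK cells (SD, n = 3 mice). In the unnamed cluster of 38 cells it was 49.0% ± 14.3, on 37 immunoproteasome and 38 constitutive UMIs. The share of T and NK cells in the male mice, which counted such cells among them, may thus blend unlike cells.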

How the data were processed

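The authors deposited counts: a Cell Ranger 3.1.0 matrix of UMI and hashtag counts (4395 barcodes, 31053 genes) and the UMI counts of 2668 cells that they had filtered in Seurat and demultiplexed by hashtag. The genome build is not given in the sources used here, so gene positions were looked up by Ensembl identifier in GENCODE M21 (GRCm38). The 46 genes, their roles, the partner lists and the tests were chosen with earlier results of these data known. Each UMI was put at random (probability 0.5) into a clustering part or a testing part. The clustering part, without the 46 genes, was clustered in Seurat 5.3.0 (R 4.3.3; 2000 variable features, 15 principal components, Louvain resolution 0.5). A name needed 3 or more listed markers that were found in 20% of the cluster's cells or more and were higher there by a log2 fold of 1 or more, and macrophages were named from their C1q level. This rule was written in part after the clusters had been seen. The testing part was added up by mouse and cell type (at least 5 cells), filtered with filterByExpr, scaled with TMM factors and tested with the quasi-likelihood test of edgeR 4.0.16 over all genes (Benjamini-Hochberg, adjusted p under 0.05). Values per mouse were given for the catalytic subunits, the activators and the inhibitor and, per comparison, for up to 5 called genes per direction with the largest change, the same way in each mouse. Genes named outside this rule (Psma5 in interferon macrophages and calls that differ among mice) were chosen after their values were seen.

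All cell types came from the same animals, and the mouse pairs the sums. Deviations of 2 cell types of the same mouse correlated with a mean r of 0.0132 (45 pairs), and those of different mice with -0.00654 (90 pairs). Between CD163+ and CD163- macrophages, however, the mouse as a block raised the calls among all genes, as given above. Alternatives were DESeq2 1.42.0, RLE factors, total UMIs, no filter, each mouse left out, the mouse as a block, other resolutions, another split, all UMIs, and the removal of the 12 cells that Scrublet (scanpy 1.11.5) marked. These were 0.45% of the cells, too few to count as a working doublet call, so that doublets stayed in. On simulated data for neutrophils against macrophages (4642 genes), edgeR called 56% and 80% of genes changed by -1 and 1 (log2), 86% and 100% of those changed by -2 and 2, and 5 of 4442 unchanged genes. All cell types were drawn there from the macrophage profile, and only 50 genes per fold were changed, in neutrophils. The simulation thus does not cover the wide differences in composition and scaling between the real cell types. Depth per mouse was 4239780, 5656489 and 13508903 UMIs. The number of columns of other samples was 0. Exact permutation tests ran in Python 3.11.15 or R. A regulator of the partner lists is not reported here.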

Additional observations from a re-analysis of the deposited data

Results flagged for a closer look

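For Psmb10, the immunoproteasome subunit at the trypsin-like site, the uncalled differences of T and NK cells from macrophages had opposite signs in the 2 sexes of the hashtags. In the mice with a male hashtag its mean level in T and NK cells was 36.3 TMM-scaled CPM above that in macrophages, and each of the 3 mice was higher. In the mice with a female hashtag the mean difference was -14.2, and each of the 3 was lower (115.4, 83.8 and 112.1 in T and NK cells against 118.2, 122.1 and 113.7 in macrophages). Psmb10 was called in neither sex, and in the female cells the groups overlapped (log2 -0.15, adjusted p = 0.796 by edgeR), with 22, 15 and 19 T and NK cells. In these female sums all 3 immunoproteasome subunits together had 41, 31 and 41 UMIs, so that the values of Psmb10 rest on few. The difference between the sexes was not tested, and the 2 sets of cells were clustered and scaled separately. A male cluster of 56 cells with Csf2, Gata3 and Arg1 among its leading genes counted as T and NK cells. The female cluster of 38 cells with these leading genes stayed unnamed, so that the 2 sets do not hold the same kinds of cells.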

How the results depend on the processing

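Of 296 counts and shares recomputed under the alternatives, 226 stayed within 1.5 times or within 1 SD, and of 1464 values of single genes 1317 kept direction and side of the threshold, 96 lost their call, 41 gained one and 10 changed sign. Alternatives chosen after seeing the data were total UMIs with no scaling factors, labels and sums both from all UMIs, and sums of under 5 cells kept. The counts of called genes that follow are of the genes tested, whose number changed with the setting. Over the cell types these were 37 with total UMIs and 45 without a filter. Between the neutrophil clusters they were 35 at resolution 0.3, 34 under another split and 18 without mouse 3. Calls among all genes changed as well. Between these clusters 943 of all 3045 genes were higher and 1311 lower at resolution 0.3, and 1014 and 1358 of 3230 under another split.

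With total UMIs 35 genes were called over all cell types (22 with TMM), 30 in neutrophils against macrophages (18), 15 in monocytes against macrophages (5), 10 in B cells against macrophages (3), 13 in T and NK cells against macrophages (5) and 0 in CD163+ against CD163- macrophages (1). The shares of all genes on that scale are given with each comparison above, but not for the test over all cell types. In neutrophils against macrophages on that scale, Psmb5 was at -0.42, Psmb7 at -0.67, Psmb9 at -0.077, Psma2 at -0.095 and Psma6 at -0.22 (log2). At resolution 0.3, 9 were called in monocytes, 7 in B cells, 2 between CD163+ and CD163- macrophages and 33 between the neutrophil clusters, in neutrophils against macrophages Psmb6 was at 0.14, Psmb8 at 0.0078 and Psma5 at 0.13, and late against early Psme1 was at -0.85. Of all 5077 genes, 1049 were higher there and 543 lower in monocytes, and 1183 and 922 in B cells. Between CD163+ and CD163- macrophages 244 were higher and 335 lower of 6627. Under another random split 10 were called in neutrophils, 2 in T and NK cells and 32 between the neutrophil clusters, and Psme1 in the neutrophil clusters was at -1.18. Of all 4853 genes, 1433 were higher and 1405 lower in neutrophils, and 928 and 1056 in T and NK cells. In both of these clusterings the early neutrophils (169 and 154 cells in place of 63) took in proliferating cells. Without a filter 3 were called in monocytes, and 3 in T and NK cells (0 higher and 3 lower, in place of 4 and 1) and 3 in B cells (0 higher and 3 lower, in place of 3 and 0). With DESeq2 0 were called between CD163+ and CD163- macrophages. With all UMIs and the same labels 11 were called in DCs, 8 in B cells, 9 in T and NK cells and 2 between CD163+ and CD163- macrophages, and with labels and sums from all UMIs 11, 6, 10 and 2 (in T and NK cells 3 higher and 7 lower). Of all 6749 genes, the first setting had 1071 higher and 1144 lower in DCs, 1384 and 1644 in B cells and 1500 and 1580 in T and NK cells. The second had 1100 and 1146, 1289 and 1754, and 1358 and 1700 of 6805 genes. Between CD163+ and CD163- macrophages these were 335 and 442 of 8236, and 417 and 504 of 8381. With only the sums of the groups compared 8 were called in monocytes and 11 in DCs, with sums of under 5 cells kept 10 in monocytes, 11 in DCs and 6 in B cells, and without the Scrublet doublets 1 in B cells. Among all genes the first setting had 900 higher and 1038 lower of 5284 in monocytes, and 892 and 916 of 5233 in DCs. The second had, of 3760, 828 and 619 in monocytes, 768 and 557 in DCs and 916 and 848 in B cells. Without the Scrublet doublets 844 of 4581 were higher and 1105 lower in B cells. Apart from the scaling, the filter and the change of clusters, the cause of these changes was not tested.

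Leaving out each mouse gave 11 to 12 called genes in neutrophils, 2 to 3 in monocytes, 0 to 2 in B cells, 0 to 5 in T and NK cells, 0 to 6 in interferon macrophages (0 without mouse 3), 0 to 0 between CD163+ and CD163- macrophages and 10 to 21 between the neutrophil clusters (10 without mouse 3). Of all 4718 to 6539 genes, 1426 to 1732 were higher and 1070 to 1906 lower in neutrophils, and 595 to 676 and 472 to 795 in monocytes. In B cells these were 615 to 698 and 741 to 1115, in T and NK cells 742 to 791 and 728 to 1092, and in interferon macrophages 27 to 203 and 0 to 15. Between CD163+ and CD163- macrophages they were 133 to 159 and 193 to 232 of 5321 to 7447, and between the neutrophil clusters 568 to 959 and 604 to 1035 of 1801 to 3069. With the mouse as a block, the paired fit called 2 genes between CD163+ and CD163- macrophages in place of 1, and changed no other count by over 1.5 times. Among all 6559 genes it called 375 higher and 461 lower between these subsets.

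The immunoproteasome share with each pair given the same weight was 57.2% in macrophages, 68.3% in DCs, 47.5% in neutrophils and 66.3% in T and NK cells. With all UMIs it was 61.6% in monocytes, 59.8% in B cells and 69.2% in T and NK cells, with labels and sums from all UMIs 61.7%, 58.8% and 69.3%, and under another random split 59.9%, 58.4% and 68.8%, and 77.6% in DCs. At resolution 0.3 it was 79.9% in DCs, and with sums of under 5 cells kept 80.5% in interferon macrophages. With the main labels it was 77.5% in interferon macrophages, below the 79.9% of the DCs at resolution 0.3. In macrophages it was 59.1% with all UMIs and with labels and sums from all UMIs and 58.6% under another random split, so that monocytes and B cells lay near macrophages there, and B cells above them with all UMIs and the same labels. The proteasome share of UMIs was 0.496% in interferon macrophages, 0.586% in monocytes, 0.658% in DCs and 0.379% in neutrophils at resolution 0.3, 0.587%, 0.633% and 0.368% in monocytes, DCs and neutrophils under another random split, and 0.592% in monocytes with all UMIs and with labels and sums from all UMIs. As a mean over single cells it was 0.221% in neutrophils and 0.563% in T and NK cells. Resolution 0.3 and the other split had 52 and 51 DCs in place of 104, and 161 and 166 monocytes in place of 106. The main DC cluster had Cd209a among its leading genes, and these smaller DC clusters did not. The shares of DCs and monocytes under these settings thus describe other sets of cells.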

Other observations

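Clusters outside the comparisons also held proteasome UMIs. The unnamed proliferating cluster (106 cells) had the highest proteasome share of UMIs of all clusters summed per mouse, with 0.767%, 0.855% and 0.733% in the 3 mice, and its immunoproteasome share was 53.6% ± 5.77 (SD, n = 3). Among macrophages, a cluster of 69 cells led by replication genes, of which 58 came from mouse 3, had a proteasome share of 0.571% and 0.633% in the 2 mice with enough cells, above 0.410% to 0.450% in all macrophages. Psmb11, the thymus subunit, had 1 UMI in all cells of the matrix.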
